A study of Mus musculus with 6 samples.

Results

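The genes examined here were 8 members of the AP-1 transcription factor family: Fos, Fosb and Fosl2 of the Fos group, Jun, Junb and Jund of the Jun group, and the related factors Batf and Atf3. They were chosen by name with earlier results of these data known, so counts of members called are a description only. All 8 were found among the 12431 genes of the count table. The RNA came from follicular B cells sorted from mouse spleen as CD23+ cells negative for CD21/35 and cultured for 1 h without added stimulus in complete RPMI medium with serum. The libraries were 3 of WT genotype (Gpr174+/Y) and 3 of GPR174-deficient genotype (Gpr174-/Y, called KO). GPR174 is an X-linked G protein-coupled receptor of lymphocytes for the lipid lysophosphatidylserine, and the mice were adult males. In KO mice the single coding exon of Gpr174 is replaced by a tdTomato reporter in the germ line, so that the receptor was lacking in the animal as well as in the cultured cells. The comparison asked how the AP-1 genes of B cells differ with the receptor early in culture.

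AP-1 factors are basic leucine zipper (bZIP) proteins that bind DNA as dimers. Fos proteins cannot pair with themselves and depend on a Jun partner, whereas Jun proteins can also pair with each other and with ATF proteins. Batf lacks the activation domains of the larger family members and joins Jun proteins and interferon regulatory factors at composite sites in lymphocytes. Several family members are immediate early genes, whose transcripts rise within minutes of a signal and decay quickly, and their induction by cAMP runs through CREB at cAMP response elements (CREs) in their promoters. In such bulk libraries, fewer cells expressing a gene and less RNA per cell cannot be told apart.

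WT libraries held 8452460 to 10876607 counts and KO libraries 9232685 to 10944833. WT replicate 2 stood apart from the other 5 libraries on the first principal component, so the values without it are given where they matter. Its summed marker levels for T, natural killer and myeloid cells were the highest of the 6 libraries, at 76.0, 17.5 and 67.9 counts per 1000000 counts of the scaled library (CPM). Lck gave 56.5 CPM of that T cell sum, and S100a8 and S100a9 gave 12.4 and 13.3 CPM of the myeloid sum. Other genes of these lists went the other way. Cd3d (1.55 CPM), Cd4 (0.119 CPM) and Csf1r (16.2 CPM) were lowest of the 6 libraries in WT replicate 2. Of 10 follicular B cell markers, 8 were in the table and had sums of 4395 to 4612 CPM in WT and 4989 to 5151 CPM in KO, while the immunoglobulin genes Ighd and Ighm, which also define these cells, were not in it. The transcripts of Gpr174 that remain in KO cells (99.7 to 100.1 CPM, against 121 to 136 CPM in WT) gave no check of the genotype labels, because the place of the reads within the gene is not known.

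Of the 8 members, 5 differed between WT and KO cells at an adjusted p under 0.05 by edgeR's quasi-likelihood test, against 1.82% of the 10514 genes tested. Higher levels in WT were called for Junb, Fos and Fosl2 (3 of 8 members, against 1.3% of genes), and lower levels for Jun and Jund (2 of 8, against 0.514%). The 3 WT values lay wholly above or wholly below the 3 KO values for 6 members, which was so for 16.7% of all genes. Fosb, Batf and Atf3 did not pass the test. The median log2 fold change (WT over KO throughout) of the 8 members was -0.13, beside 0.00 for all genes tested, since members of both directions took part in it.

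**Figure D1:**
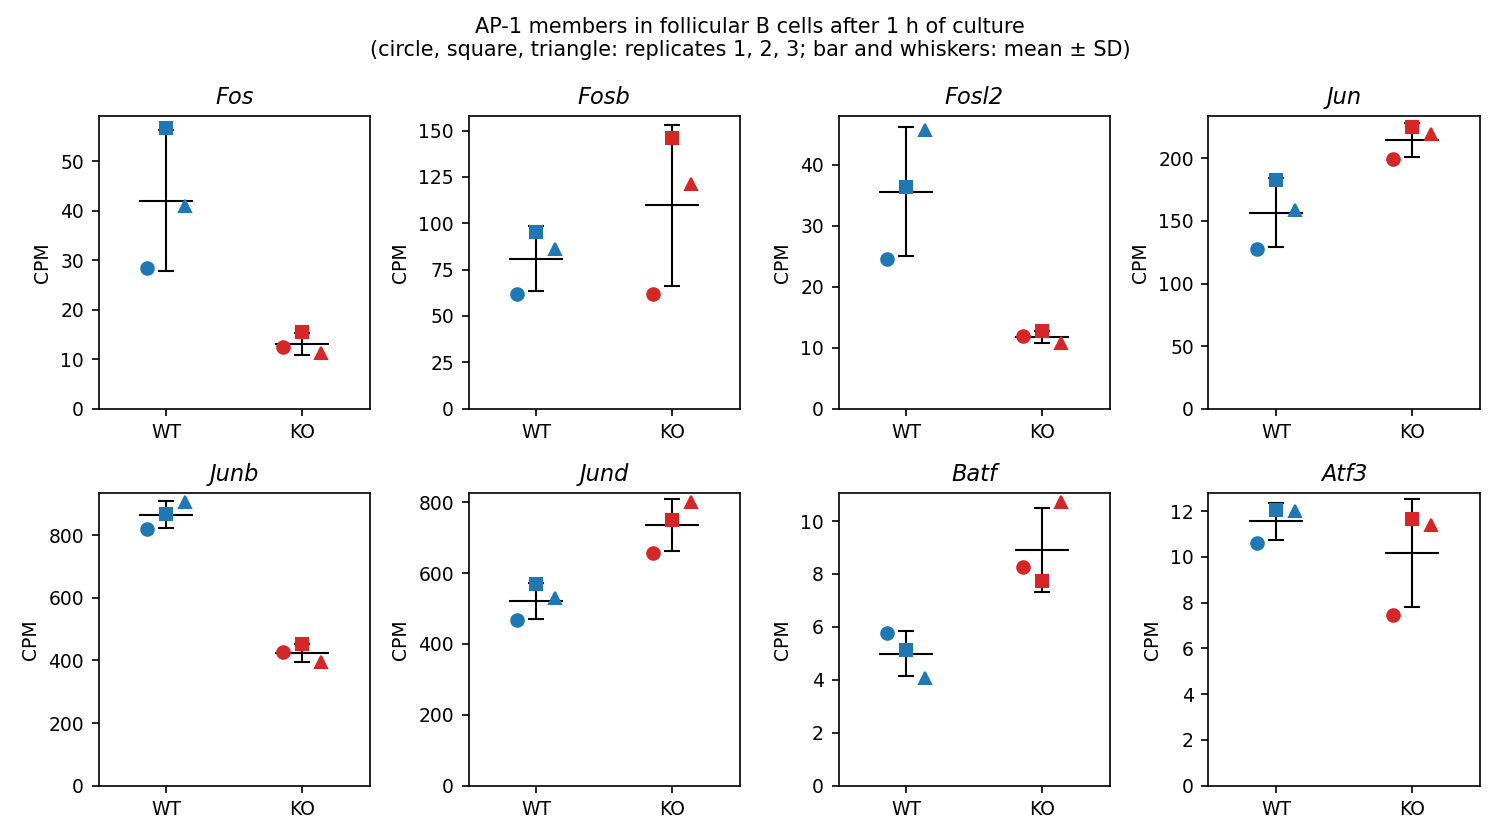
Level of each member in CPM (vertical axes from 0) in 3 WT and 3 KO libraries, with replicates 1, 2 and 3 as circle, square and triangle and with mean ± SD. Fos, Fosl2 and Junb lie higher in every WT library, Jun, Jund and Batf higher in every KO library, and Fosb and Atf3 overlap.

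Short promoter stretches of the members are printed first, because CREB acts on cAMP-induced members of the family at CREs in their promoters. Which of the 8 members are induced in that way was not tested. The windows searched ran from 250 bases before to 50 bases after the RefSeq start of each gene (GRCm38.p6, which has the coordinates of mm10), and all 8 members had one. Each printed stretch has 28 bases and reads 5′ to 3′ along the gene's own strand, with the motif in capitals. Matches were sought on both strands. The core of a CRE was spelled TGACG and the full CRE, which contains that core, TGACGTCA. The AP-1 site was spelled TGANTCA, and a variant of these sites TGACATCA. The CArG box, bound by serum response factor, was sought too. The motifs were chosen after the promoter sequences had been seen. Coordinates follow the sequences, and a position of -1 is the base just before the start.
Fos, distal of its 2 matches, chr12:85473749-85473776, + strand, -129 to -125: ggggcgtagagtTGACGacagagcgccc
Fos, proximal match, chr12:85473812-85473839, + strand, -66 to -62: agttccgcccagTGACGtaggaagtcca
Fosb, chr7:19310090-19310117, - strand, -60 to -56: tggagttgcgggTGACGcaagcgcgggg
Jun, chr4:95052250-95052277, - strand, -45 to -38: agcctcggggTGACATCAtgggctattt
Junb, chr8:84978839-84978866, - strand, -106 to -102: gcttcctgacagTGACGcgagccgcctc
Batf, chr12:85686610-85686637, + strand, -98 to -94: tttctaacttgtTGACGtttccgcccat
Atf3, chr1:191183325-191183352, - strand, -7 to -3, motif on the opposite strand: ttaatagcattaCGTCAgcctgggattg

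TGACG was found in the windows of 5 of the 8 members, namely Fos, Fosb, Junb, Batf and Atf3, and in 20.8% of the 32851 windows of all genes. TGACGTCA was in no member's window and in 1.79% of all windows. TGANTCA was likewise in no member's window and in 7.81% of all. TGACATCA was in the Jun window alone among the members and in 3.62% of all windows. The CArG box was in no member's window and in 1.63% of all. Sites more than 250 bases before a start were not searched, so an absence here does not hold for the whole promoter. The windows of Fosl2 and Jund held none of these letters. The RefSeq and GENCODE (vM21) starts were the same base for Fos and Jun and lay within 51 bases of each other for Fosb, Junb and Batf, but they were 671 bases apart for Fosl2, 1210 for Jund and 34706 for Atf3, so for those 3 genes the window covers only 1 of the annotated starts. A match is a description of letters and says nothing about binding in these cells.

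Among the Fos group, Fos and Fosl2 were each about 3-fold higher in WT cells, whereas Fosb was not distinguishable between genotypes. Fos (c-Fos, chr12:85473890-85477273, mm10, + strand, 4 exons), the founding member and a classical immediate early gene, was at 28.4, 56.8 and 40.9 CPM in WT replicates 1 to 3 and at 12.5, 15.6 and 11.3 CPM in KO replicates 1 to 3. The lowest WT library was 1.82 times the highest KO library. Its means were 42.1 CPM ± 14.2 in WT and 13.1 CPM ± 2.21 in KO (SD, n = 3), from 311 to 477 reads per WT library and 116 to 143 per KO library. The log2 fold change was 1.68 ± 0.21 (SE; 95% interval 1.23 to 2.13), a 3.20-fold difference with an edgeR adjusted p of 5.71e-05, and 23 of the 10514 tested genes had a larger positive log2 fold change. The highest WT value belonged to replicate 2, and without that library the log2 fold change was 1.40 with an edgeR adjusted p of 4.29e-05.

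Fosl2 (Fra-2, chr5:32135801-32157842, + strand, 4 exons), a Fos relative that usually appears later and lasts longer than Fos after stimulation, was at 24.6, 36.3 and 45.7 CPM in the WT libraries and at 11.8, 12.6 and 10.7 CPM in the KO libraries. All KO values were close together and below all WT values, with the lowest WT library at 1.95 times the highest KO library. The means were 35.5 CPM ± 10.6 in WT and 11.7 CPM ± 0.965 in KO (SD, n = 3). The log2 fold change was 1.60 ± 0.20 (SE; 95% interval 1.18 to 2.01), or 3.02-fold, with an edgeR adjusted p of 1.05e-05. The ratio of Fos to Fosl2 reads was much the same in both genotypes, at 1.21 ± 0.337 in WT and 1.11 ± 0.103 in KO (SD, n = 3), and its ranges overlapped.

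Fosb (chr7:19302696-19310051, - strand, 4 exons), an immediate early gene, had the largest SD relative to its mean among members in KO cells (39.6%). It was at 61.7, 95.1 and 86.1 CPM in WT and at 61.7, 146 and 121 CPM in KO. KO replicate 1 was as low as the lowest WT library, while the other 2 KO libraries were above every WT library, so the groups overlapped. The means were 81.0 CPM ± 17.3 in WT and 109.7 CPM ± 43.4 in KO (SD, n = 3), and the log2 fold change was -0.44 ± 0.39 (SE; 95% interval -1.50 to 0.63; edgeR adjusted p = 0.767). That interval includes a difference of either sign and does not show equal levels. The Fosb result rested on KO replicate 1, since without that library the log2 fold change was -0.73 ± 0.15 (SE) and the edgeR adjusted p fell to 0.0219.

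Among the Jun group, Junb was 2-fold higher in WT cells, and Jun and Jund were lower by a smaller margin. Junb (chr8:84974484-84978718, - strand, 1 exon), a Jun protein that activates weakly and can oppose c-Jun at some target genes, was at 821, 868 and 907 CPM in the WT libraries and at 427, 452 and 395 CPM in the KO libraries. Each group was tight, and the lowest WT library was 1.82 times the highest KO library. The means were 865 CPM ± 43.0 in WT and 425 CPM ± 28.4 in KO (SD, n = 3). Over 4060 to 8980 reads per library, the log2 fold change was 1.03 ± 0.07 (SE; 95% interval 0.89 to 1.17), or 2.04-fold. Its edgeR adjusted p of 1.33e-10 went with the smallest unadjusted p of all genes tested. The annotated interval of Junb shares 351 bases at its 3′ end with Prdx2 on the opposite strand. That interval is longer than the 1-exon longest transcript of 1809 bases, and whether this transcript reaches the shared bases was not examined. The use of strand in counting is not given in the sources used here. Prdx2 itself, a peroxide-reducing enzyme, averaged 56.8 CPM ± 4.33 in WT and 56.7 CPM ± 3.59 in KO (SD, n = 3), with an edgeR adjusted p of 0.999.

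Jun (c-Jun, chr4:95049034-95052222, - strand, 1 exon), the principal partner of Fos and a strong activator, was at 128, 183 and 159 CPM in WT and at 199, 225 and 219.8 CPM in KO. Every KO library was above every WT library, but the gap was narrow, with the lowest KO library 1.09 times the highest WT library. The means were 157 CPM ± 27.6 in WT and 215 CPM ± 13.8 in KO (SD, n = 3). The log2 fold change was -0.46 ± 0.10 (SE; 95% interval -0.67 to -0.25), so that KO cells held 1.37 times the WT level, and the edgeR adjusted p was 0.0162. Omission of single libraries ended that call in 4 of 6 fits. The edgeR adjusted p was then 0.0826 without WT replicate 1, 0.0753 without WT replicate 3, 0.108 without KO replicate 2 and 0.127 without KO replicate 3, with the direction kept in each. An annotated antisense gene, Junos, overlaps Jun on the opposite strand and was not in the count table.

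Jund (chr8:70698949-70700616, + strand, 1 exon), which is expressed at a steady level in most resting cells, was at 468, 568 and 531 CPM in WT and at 656, 749 and 799 CPM in KO. As for Jun, every KO library exceeded every WT library, here by at least 1.16 times. The means were 522 CPM ± 50.5 in WT and 735 CPM ± 72.8 in KO (SD, n = 3). The log2 fold change was -0.49 ± 0.08 (SE; 95% interval -0.66 to -0.33), with 1.41 times the WT level in KO and an edgeR adjusted p of 0.000432, and no omission of a single library raised that p above 0.0115. Jund reads per Jun read were 3.37 ± 0.279 in WT and 3.42 ± 0.190 in KO (SD, n = 3), with overlapping ranges. Jund is overlapped by an antisense gene, Gm11175, which was not in the count table.

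The remaining members were expressed at low levels and did not pass the test. Batf (chr12:85686669-85709087, + strand, 3 exons), which directs class switching and effector programs in activated lymphocytes, was at 5.76, 5.12 and 4.08 CPM in WT and at 8.28, 7.73 and 10.7 CPM in KO. The groups did not overlap, with the lowest KO library 1.34 times the highest WT library, but these values rest on 36 to 63 reads per WT library and 71 to 110 per KO library. The log2 fold change was -0.83 ± 0.30 (SE; 95% interval -1.45 to -0.21), with an unadjusted p of 0.0101 that did not survive the adjustment over all genes in edgeR (adjusted p = 0.209).

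Atf3 (chr1:191170296-191218039, - strand, 4 exons), a stress-induced bZIP factor that often represses, was at 10.6, 12.0 and 12.0 CPM in WT and at 7.46, 11.7 and 11.4 CPM in KO. Only KO replicate 1 lay below the others, and the groups overlapped. The means were 11.6 CPM ± 0.823 in WT and 10.2 CPM ± 2.35 in KO (SD, n = 3), and the log2 fold change was 0.19 ± 0.25 (SE; 95% interval -0.33 to 0.70; edgeR adjusted p = 0.836). At this depth, of 82 to 117 reads per library, a difference of the size seen for Fos lay outside that interval.

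**Figure D2:**
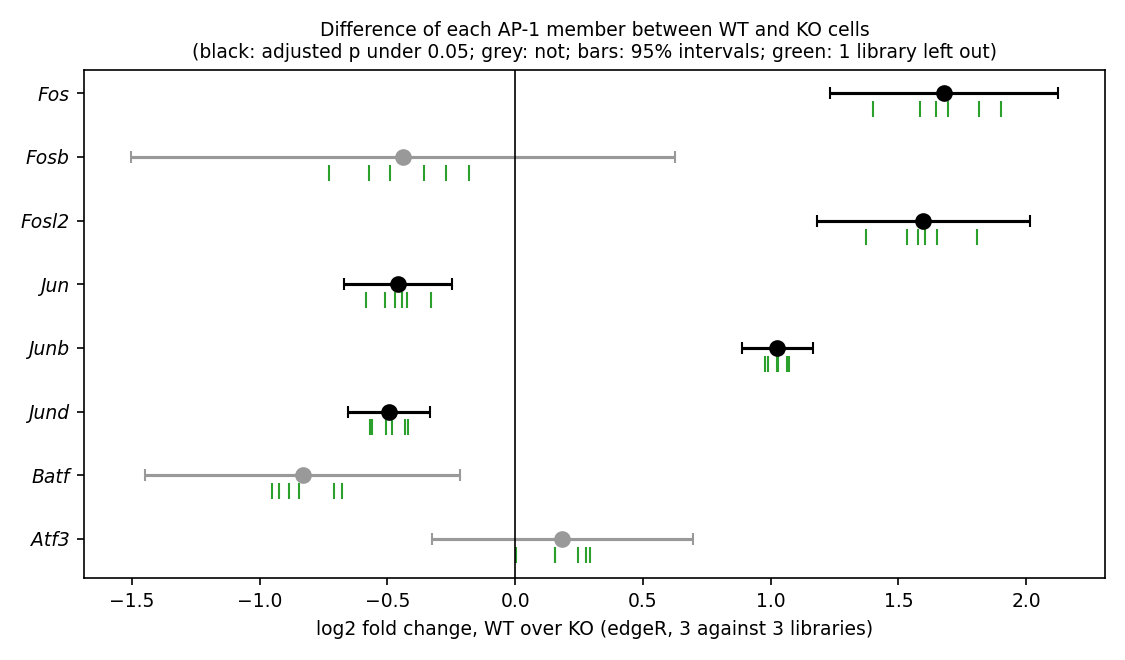
Log2 fold change of each member, WT over KO, from edgeR (horizontal axis; points with 95% intervals, black where the adjusted p was under 0.05 and grey where it was not), with green ticks for the 6 fits that each left out 1 library. Fos, Fosl2 and Junb lie right of 0 at 1.68, 1.60 and 1.03 and Jun and Jund left of 0 at -0.46 and -0.49, and the interval of Fosb is the widest.

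Because Fos and Jun proteins act as dimers, the make-up of each group was examined as the share of each gene in the reads of its group, called here the Fos pool (Fos, Fosb and Fosl2) and the Jun pool (Jun, Junb and Jund). These are shares of RNA reads, and neither protein levels nor dimers were measured. The sizes of the pools were not tested, and overlap of their ranges does not show equal sizes. The Fos pool was 115, 188 and 173 CPM in WT and 85.9, 174 and 143 CPM in KO, and the Jun pool was 1417, 1619 and 1596 CPM in WT and 1282, 1427 and 1415 CPM in KO. Both sums overlapped between genotypes, with WT means 1.18 and 1.12 times the KO means. The number of Fos pool reads per Jun pool read was 0.102 ± 0.0185 in WT and 0.0968 ± 0.0278 in KO (SD, n = 3), also with overlap.

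Within the Fos pool, the shares of Fos and Fosl2 were smaller in KO cells and that of Fosb was larger. Fos made up 24.8, 30.2 and 23.7% of the pool's reads in WT and 14.5, 8.94 and 7.88% in KO, with means of 26.2% ± 3.48 and 10.4% ± 3.55 (SD, n = 3). Fosl2 made up 21.4, 19.3 and 26.5% in WT and 13.8, 7.25 and 7.47% in KO, with means of 22.4% ± 3.67 and 9.49% ± 3.69. Fosb took the complement, at 53.8, 50.5 and 49.8% in WT and 71.7, 83.8 and 84.6% in KO, with means of 51.4% ± 2.11 and 80.1% ± 7.22. No share overlapped between genotypes, and KO replicate 1 was nearest to the WT libraries in each. The differences of the means, WT minus KO, were 15.8 points for Fos, 12.9 for Fosl2 and -28.7 for Fosb, each with a two-sided exact permutation p of 0.1, the smallest that 3 against 3 libraries can give. Without Fosb, the summed level of Fos and Fosl2 was 77.6 CPM ± 21.6 in WT and 24.8 CPM ± 3.14 in KO (SD, n = 3).

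Within the Jun pool, Junb held the most reads in every WT library and Jund in every KO library. Junb made up 57.9, 53.6 and 56.8% of the pool's reads in WT and 33.3, 31.7 and 27.95% in KO, with means of 56.1% ± 2.24 and 30.98% ± 2.75 (SD, n = 3). Jund made up 33.0, 35.1 and 33.2% in WT and 51.2, 52.5 and 56.5% in KO, with means of 33.8% ± 1.12 and 53.4% ± 2.78. Jun, the smallest part, made up 9.03, 11.3 and 9.95% in WT and 15.5, 15.8 and 15.5% in KO, with means of 10.1% ± 1.15 and 15.6% ± 0.152. No share overlapped between genotypes. The differences of the means, WT minus KO, were 25.1 points for Junb, -19.6 for Jund and -5.53 for Jun, each again at the smallest exact permutation p of 0.1. With Jund left out of the pool, the difference was 18.3 points for Junb and -18.3 for Jun. Expressed as ratios, there were 5.62 Junb reads per Jun read in WT and 1.98 in KO, and 1.66 Junb reads per Jund read in WT and 0.583 in KO.

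**Figure D3:**
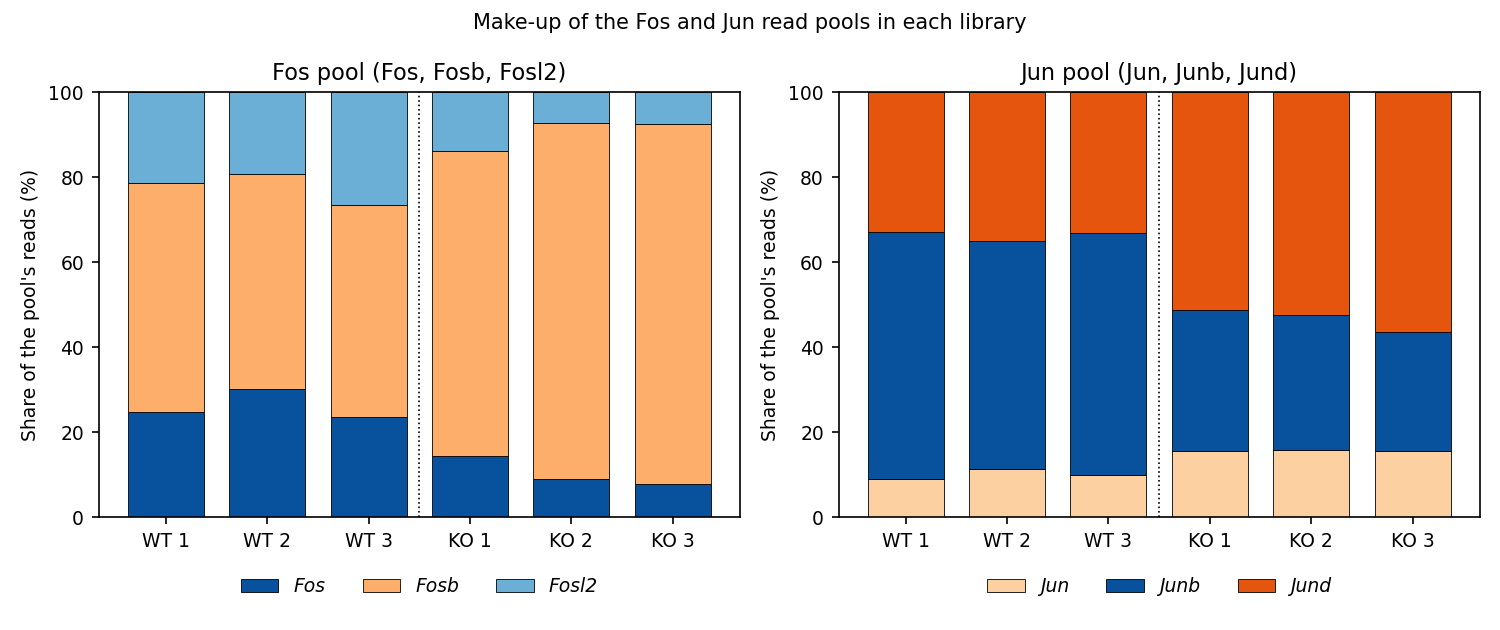
Share of each gene in the reads of its pool (vertical axis, percent; stacked bars add to 100), for the Fos pool (left) and the Jun pool (right) in each of the 6 libraries. Fos and Fosl2 together with Junb take larger shares in all 3 WT libraries, and Fosb, Jun and Jund in all 3 KO libraries.

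Counting error was small beside these differences, since Wilson 95% intervals on single libraries reached 1.27 to 2.87 points to each side in the Fos pool and 0.451 to 0.855 points in the Jun pool. The shares of 1 pool add up to a whole, so its 3 differences are not independent of one another. Shares compare read numbers, and because priming was at the 3′ end, reads per transcript need not grow with transcript length. When counts were divided by the length of the longest annotated transcript instead, mean shares in WT and KO were 42.1 and 17.9% for Fos, 46.2 and 76.8% for Fosb, 11.7 and 5.25% for Fosl2, 5.82 and 9.07% for Jun, 56.98 and 31.7% for Junb, and 37.2 and 59.2% for Jund. The directions were the same on both scales.

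On the per-length scale (CPM per kilobase of the longest transcript), the order of levels in WT was Junb, Jund, Jun, Fosb, Fos, Atf3, Fosl2 and Batf. Junb led at 478 ± 23.8 CPM per kilobase, followed by Jund at 313 ± 30.3 and Jun at 49.1 ± 8.67 (SD, n = 3), and the ranges of these neighbours did not overlap. The ranges of Fosb and Fos overlapped, as did those of Atf3 with Fosl2 and of Fosl2 with Batf. In KO the order was Jund at 441 ± 43.6 CPM per kilobase, Junb at 235 ± 15.7, Jun at 67.4 ± 4.33, then Fosb, Batf, Fos, Atf3 and Fosl2. There the only neighbours with overlapping ranges were Fos and Atf3. Fosl2 was lowest in KO at 1.79 ± 0.148 CPM per kilobase, beside 5.44 ± 1.62 in WT. The lower part of this order depended on the division by length. On CPM, Batf was lowest in both genotypes, followed by Atf3, Fosl2 and Fos, whereas the order of Junb, Jund, Jun and Fosb in each genotype was the same on both scales.

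The levels of the other genes around AP-1 were taken from the same fit, in lists of relatives, partners, regulators and upstream kinases. Of 55 such genes, 53 were in the count table and 52 were tested. None was higher in WT and 2 were lower at an adjusted p under 0.05 in edgeR, and the median log2 fold change was -0.05. At an unadjusted p under 0.05 there were 1 higher and 5 lower, while at an adjusted p under 0.05 DESeq2 called 0 higher and 2 lower and limma-voom 0 higher and 1 lower. The 6 tested relatives and dimer partners of the Fos, Jun and Batf groups had 0 calls and a median of -0.16, and Fosl1 and Batf2 were not in the table. Serum response factor and its cofactors, which drive Fos from the serum response element, had 0 calls among 6 genes (median -0.04). The MAP kinases, the kinases that activate them and the RSK and MSK kinases that they activate had 0 among 15 (median -0.07), and the ubiquitin ligases, coactivators and other regulators of Fos and Jun proteins had 0 among 9 (median 0.01). Of these 4 lists, 1 gene of the serum response factor list and 1 of the MAP kinase list had an unadjusted p under 0.05, both lower in WT, and neither DESeq2 nor limma-voom called any gene in the 4.

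The calls were in the bZIP factors of the Maf, Bach and Nrf groups (1 of 10, median -0.01) and in the partners on composite sites (1 of 6, median -0.01). Nfe2l2 (Nrf2, the inducer of antioxidant genes) averaged 156 CPM ± 6.63 in WT and 193 CPM ± 7.06 in KO (SD, n = 3). Its log2 fold change was -0.31 ± 0.08 (SE; edgeR adjusted p = 0.0423), a call that omission of any library but WT replicate 2 ended, with an edgeR adjusted p of up to 0.251. Irf4, which binds with Batf and Jun proteins at composite sites and drives plasma cell fate, averaged 373 CPM ± 37.7 in WT and 484 CPM ± 25.8 in KO (SD, n = 3). Its log2 fold change was -0.38 ± 0.07 (SE; edgeR adjusted p = 0.0043). Its call was lost without WT replicate 1 and without KO replicate 3, where the edgeR adjusted p reached 0.0696. Irf4 and Batf thus both had their higher values in KO, Irf4 with a call and Batf without one.

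**Figure D4:**
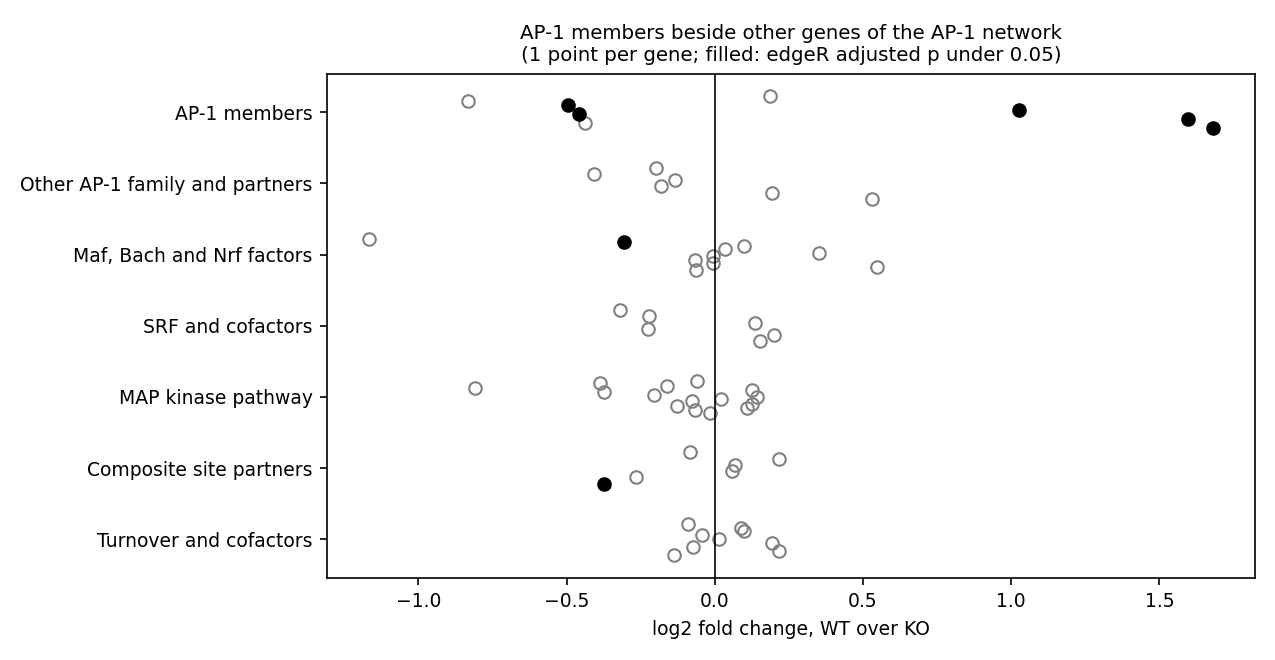
Log2 fold change, WT over KO (horizontal axis), of the 8 AP-1 members (top row) and of 52 other genes in 6 lists, with 1 point per gene and filled points for an edgeR adjusted p under 0.05. Of the points right of 0, only Fos, Fosl2 and Junb are filled, and the filled points left of 0 are Jun, Jund, Nfe2l2 and Irf4.

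Markers of other cells in the sort were read beside these results, with their part in them not tested. The summed levels of 7 natural killer cell markers were 8.96 to 17.5 CPM in WT and 6.73 to 7.11 CPM in KO, so WT lay above KO, with or without WT replicate 2, and Ncr1, a defining marker, was not in the table. T cell markers (50.5 to 76.0 CPM over 9 genes in WT, 36.9 to 58.5 in KO), myeloid markers (44.2 to 67.9 CPM over 10 genes and 45.1 to 53.6) and marginal zone B cell markers (1279 to 1365 CPM over 7 genes and 1252 to 1447) overlapped between genotypes. The T cell sums came mostly from Lck (33.0 to 56.5 CPM in WT and 29.6 to 45.1 in KO). Those of the marginal zone came mostly from Cr2 (1002 to 1063 CPM in WT and 980 to 1165 in KO). The summed follicular B cell markers were higher in every KO library, with 5 of the 8 genes higher in the KO mean and Cd79a, Pax5 and Cxcr5 higher in the WT mean. The plasma cell markers also had higher sums in every KO library (448 to 528 CPM over 6 genes in WT and 559 to 622 in KO), but through Irf4 alone. The other 5 plasma cell markers each had the higher mean in WT, and their sums overlapped, at 118 to 127 CPM in WT and 103 to 119 CPM in KO. Erythroid and platelet markers (49.2 to 88.2 CPM over 4 genes, with none of 4 listed hemoglobin genes in the table, and 45.1 to 143) and 11 heat shock genes (2995 to 3553 and 3267 to 3378 CPM) overlapped. Of the 52 marker and heat shock genes tested, 0 were higher in WT and 3 were lower, namely Cd79b, Irf4 and Hspa1b. The heat shock gene Hspa1b added little to its list's sum, at 1.55, 2.98 and 1.47 CPM in WT and 6.55, 5.34 and 6.82 CPM in KO. Its log2 fold change was -1.65 (edgeR adjusted p = 0.0428), beside a median of -0.08 for the 11 heat shock genes. At an unadjusted p under 0.05 there were 2 higher and 6 lower, 4 of the lower ones being follicular B cell markers. DESeq2 called 0 higher and 5 lower, of which 3 were follicular B cell markers. With limma-voom, 0 were called higher and 2 lower, of which 1 was a follicular B cell marker.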

How the data were processed

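The authors prepared single-end libraries with the QuantSeq 3′ kit, aligned reads to mm10 with STAR and counted them per gene with HTSeq. Versions, annotation and use of strand are not given in the sources used here. The deposited values are raw counts for single libraries, with no pooling and no normalization. The 12431 genes each had at least 10 counts in total, and 0 sample columns were left unused. Libraries were grouped by their titles, and total counts ranged from 8452460 to 10944833.

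Genes were filtered with filterByExpr (10514 left) and compared with edgeR (4.0.16, R 4.3.3) by the two-sided robust quasi-likelihood test with TMM scaling and Benjamini-Hochberg adjustment (threshold 0.05). CPM are counts per 1000000 of the TMM-scaled library size. SEs were obtained as |log2 fold change|/√F. Pool shares were computed from raw counts and compared by exact permutation (SciPy 1.17.1). Reads carry no molecular identifiers, so Wilson 95% intervals cover counting error only. Within groups, libraries differed by 6.89 to 10.9 times the sampling variance (chi-square per degree of freedom), so none was a copy.

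The genes named were all 8 members, the called genes of the network lists, and, for each called member, the 3 most correlated genes among those averaging 100 counts or more. Gpr174, Prdx2, the called markers and some other markers were named in addition. Members and lists were chosen with earlier results of these data known. Spi1, Adgre1, Jchain, Mrtfa, Mrtfb and Cop1 were read under the older symbols Sfpi1, Emr1, Igj, Mkl1, Mkl2 and Rfwd2. Gene positions are from GENCODE vM21 and promoter sequences from RefSeq (GRCm38.p6). Alternatives were DESeq2 (1.42.0, the study's tool), limma-voom (3.58.1), ordinary dispersions, scaling by RLE factors, by upper quartiles or by totals only, filtering at 50 mean counts or not at all, the replicate number as a block, and omission of each library.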

Additional observations from a re-analysis of the deposited data

How the results depend on the processing

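All 72 values of the 8 members under the 9 alternatives that kept every library had the direction and side of the threshold first reported. With 1 library left out, 43 of 48 did, the exceptions being 4 for Jun and 1 for Fosb, and 0 reversed. Leaving out 1 library gave 91 to 183 calls over all genes, against 191 (69 to 124 higher in WT, 22 to 59 lower), 4 to 6 calls among the members (3 to 3 higher, 1 to 3 lower), 0 to 2 among the network genes and 1 to 3 among the markers. The other alternatives gave 170 calls (ordinary dispersions) to 281 (replicate block). Network genes called numbered 1 with limma-voom, 1 with ordinary dispersions and 5 with the replicate block (Nfe2l2, Irf4, Irf8, Mapk11 and Nfatc3), against 2. Markers called numbered 5 with DESeq2 and 5 with the block, against 3. The block called 95 genes lower in WT, against 54. It called no other member, and the edgeR adjusted p of Fosb was 0.0616. Whether a replicate number marks a shared day or litter is not given in the sources used here. Same-numbered libraries correlated at 0.0136 to 0.0498 in their deviations from group means, in each case that library's best match. Pairs of unlike number gave -0.0400 to -0.00308. These correlations are weak but do not exclude a pairing by number. Share differences with 1 library left out ranged from 13.8 to 17.8 points for Fos, -32.9 to -26.4 for Fosb, 10.9 to 15.0 for Fosl2, -6.14 to -5.00 for Jun, 23.6 to 26.4 for Junb and -20.7 to -18.1 for Jund (exact permutation p 0.2, the smallest there). Per length they were 24.2, -30.7, 6.44, -3.25, 25.3 and -22.0 points. With Jund left out of the Jun pool, Jun moved from -5.53 to -18.3 and Junb from 25.1 to 18.3. The addition of Fosl1 to the Fos pool was not run, since it was not in the table. Batf and Atf3, at about 36 to 117 reads per library, are the values most limited by depth.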

Other observations

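The genes whose levels ran most closely with each called member over the 6 libraries were listed among 7431 tested genes that averaged 100 counts or more. The measure was Pearson's r of log2 CPM, a description over 6 points that include the genotype difference itself. Other genes came close to those named, with 22 genes for Junb, 13 for Jund, 7 for Fos and 5 each for Fosl2 and Jun that were above or within 0.01 of the third r. Junb ran most closely with Samd8 (0.996), Vps37b (0.995) and Kctd12 (0.994). Vps37b, a subunit of the ESCRT-I sorting complex, was at 674, 640 and 663 CPM in WT and 330, 349 and 306 CPM in KO. Fosl2 ran with Tnfrsf1b (0.995), Uqcrfs1 (0.991) and Gm11974 (0.985). Tnfrsf1b, a receptor for tumor necrosis factor, was at 188, 207 and 228 CPM in WT and 127, 134 and 124 CPM in KO, with its libraries in the same order as those of Fosl2. Fos ran with Tgif1 (0.994), Spty2d1 (0.989) and Psmd10 (0.988). Jun ran with B4galt3 (0.990), Plekhj1 (0.984) and Supt5h (0.982). Jund ran with Snx8 (0.990), Irf4 (0.987) and Tbc1d10a (0.983). B4galt3, Plekhj1, Supt5h, Psmd10, Uqcrfs1, Gm11974, Snx8 and Tbc1d10a did not pass the edgeR test between genotypes. Among the members themselves, r was 0.96 for Fos with Fosl2, 0.97 for Fosl2 with Junb and 0.96 for Jun with Jund.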
